A study of Mus musculus with 4 samples.

Results

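The transcription factors described here are 10 genes with known parts in the fate of monocytes, found by symbol among the 23995 gene symbols of the deposited expression table. They are the nuclear receptors Nr4a1, Nr4a2 and Nr4a3, the C/EBP genes Cebpa, Cebpb and Cebpd, the Krüppel-like factors Klf2 and Klf4, the interferon regulatory factor Irf8, and Spi1, which encodes PU.1. RNA was sequenced from Ly6Chi and Ly6Clo monocytes sorted from mouse blood, in 4 libraries with 1 library per group. RBP-J-deficient mice were Rbpj fl/fl Lyz2 cre/cre, in which Cre expressed from the Lyz2 locus deletes the floxed gene in monocytes, macrophages and neutrophils, and the mice were age-matched. Control mice were Rbpj +/+ Lyz2 cre/cre, so both genotypes carried the Cre. The control libraries are titled WT and have Lyz2-Cre as their genotype label. How many animals gave cells to each library is not given in the sources used here.

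Ly6Chi monocytes are the classical, inflammatory subset, and they convert in the blood into Ly6Clo monocytes, which patrol the vessel wall. PU.1 is the master regulator of the myeloid lineage. IRF8 and KLF4 act downstream of it in the making of monocytes. C/EBPα drives early myeloid progenitors, C/EBPβ and NR4A1 are required for Ly6Clo monocytes, and KLF2 keeps leukocytes quiescent. RBP-J is the DNA-binding factor through which Notch receptors act on their target genes.

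Expression was measured as FPKM (fragments per kilobase of transcript, relative to all mapped fragments), which is scaled for length. Levels are therefore set side by side between genes, but without correction for G and C content or for genes that share a locus. A difference is given as the log2 ratio of (FPKM + 1), a scale that understates the change of low genes. The depth of the libraries is unknown, and with 1 library per group no difference has a replicate check and no p-value was computed. In bulk RNA, fewer cells of one type and less RNA per cell cannot be told apart. Of all symbols, 10240 reached an FPKM of 1 in 1 or more libraries, and these serve as the background. Of the 10 factors, 8 were among them, and Nr4a2 and Nr4a3 were not.

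The labels were checked first. For Rbpj, the deleted gene, the FPKM of control and RBP-J-deficient cells was 8.30 and 2.43 in the Ly6Clo subset, and 14.4 and 2.85 in the Ly6Chi subset. All 9 markers of Ly6Chi monocytes were at least 2-fold lower in control Ly6Clo than in control Ly6Chi cells, and 10 of 11 markers of Ly6Clo monocytes were at least 2-fold higher. In RBP-J-deficient mice these counts were 6 and 3. Between genotypes, 7 of the 9 Ly6Chi markers were at least 2-fold higher in RBP-J-deficient than in control Ly6Clo cells, where their summed FPKM was 2332 and 938.7. Their part in the differences of the factors was not tested. The 5 T cell markers summed to an FPKM of at most 1.89 in any library. The 6 B cell markers summed to 68.0 in control Ly6Clo, 102.1 in RBP-J-deficient Ly6Clo, 26.2 in control Ly6Chi and 47.2 in RBP-J-deficient Ly6Chi cells, with Cd79b the main contributor. The 4 NK cell markers summed to at most 3.31, the 5 dendritic cell markers to at most 14.2, and the 2 erythroid markers to at most 63.7. The 4 neutrophil markers found summed to between 162.3 and 1327 and the 4 platelet markers to between 119.4 and 334.8, with the higher sums in Ly6Chi cells. The actin gene Actb stands at 0 in the 2 RBP-J-deficient libraries, so a factor listed at 0 was not read as absent. Zeros were kept as values in the background shares and ranks, where Actb counts as lower in RBP-J-deficient cells of both subsets.

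The promoters of the factors show what the family members share and where they differ. RefSeq windows (GRCm38.p6, from 250 bases before to 50 bases after a transcript start) were found for 8 of the 10 factors, with 2 windows for Irf8, and none for Cebpd and Spi1. The 250 bases before the start are printed below, 5′ to 3′ on the strand of the gene, for 4 of them. Capitals mark TGACG, the short form of a cyclic AMP response element, on either strand (CGTCA on the other). The Nr4a genes are induced through such elements. The elements are shown because Nr4a1 and Nr4a2 hold the same number of them and differ widely in level. The search for TGACG was added after the windows had been seen.

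Nr4a1, chr15:101266596-101266845, plus strand: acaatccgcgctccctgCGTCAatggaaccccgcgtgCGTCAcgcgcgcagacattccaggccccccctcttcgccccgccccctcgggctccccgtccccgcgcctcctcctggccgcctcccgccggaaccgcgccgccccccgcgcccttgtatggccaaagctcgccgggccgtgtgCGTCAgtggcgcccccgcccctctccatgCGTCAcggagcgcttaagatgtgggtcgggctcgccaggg

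Nr4a2, chr2:57124004-57124253, minus strand: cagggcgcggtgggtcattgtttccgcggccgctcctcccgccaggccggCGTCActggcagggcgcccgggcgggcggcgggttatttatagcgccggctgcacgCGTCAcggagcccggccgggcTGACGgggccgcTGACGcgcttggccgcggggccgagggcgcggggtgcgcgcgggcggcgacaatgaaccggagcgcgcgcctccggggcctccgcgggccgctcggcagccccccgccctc

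Cebpb, chr2:167688665-167688914, plus strand: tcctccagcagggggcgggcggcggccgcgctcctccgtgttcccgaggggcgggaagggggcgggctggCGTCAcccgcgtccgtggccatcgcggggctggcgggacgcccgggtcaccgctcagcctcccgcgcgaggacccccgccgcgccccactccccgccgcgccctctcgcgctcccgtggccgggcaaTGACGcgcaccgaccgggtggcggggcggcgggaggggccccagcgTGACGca

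Klf4, chr4:55532476-55532725, minus strand: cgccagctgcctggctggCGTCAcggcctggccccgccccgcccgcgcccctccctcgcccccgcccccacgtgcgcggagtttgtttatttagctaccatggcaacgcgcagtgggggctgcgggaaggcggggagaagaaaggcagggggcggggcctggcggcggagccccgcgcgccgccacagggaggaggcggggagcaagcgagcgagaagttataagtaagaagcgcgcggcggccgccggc

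The windows of Nr4a1, Nr4a2 and Nr4a3 each held 4 matches of TGACG. Of the 250 bases before the start of Nr4a3, 152 lie in a GENCODE exon. The Nr4a3 match that begins 147 bases before the start falls in that exon. In Nr4a1 the first bases of the matches lay 233, 213, 69 and 40 bases before the start. Cebpb held 3, and Klf2 and Klf4 held 1 each. At least 1 match was found in 6 of the 9 windows and in 20.8% of all 32851 windows, and 0.231% of all windows held 4 or more. The full element TGACGTCA, which contains the short form, was in none of the 9 windows and in 1.79% of all. GTGGGAA, a form of the RBP-J site, was in 1 of the 9, a window of Irf8, starting 36 bases after the start, and in 6.38% of all windows. The shorter core TGGGAA, which that form contains and which was also added later, was in 2 of 9 windows, both of Irf8, and in 25.6% of all. None of the 9 windows held AAAGGTCA, the site of NR4A receptors (1.51% of all), TTGCGCAA for C/EBP (0.183%), CCACACCC for KLF (3.56%) or GAGGAAGT for PU.1 (3.20%). These letters are a description of the windows, not of binding. The 250 bases were rich in G and C in these genes, with 74.4% in Nr4a1, 80.0% in Nr4a2, 81.6% in Cebpb and 74.0% in Klf4, against a median of 52.4% over all windows. The shares over all windows are therefore not matched for GC content, and no enrichment of TGACG is read from them.

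Nr4a1 was the factor whose level differed most between genotypes in Ly6Clo monocytes. NR4A1 (Nur77) is an orphan nuclear receptor on which Ly6Clo monocytes depend. Its FPKM stood at 618.2 in control Ly6Clo and 65.6 in RBP-J-deficient Ly6Clo cells, and 213.9 in control Ly6Chi and 182.5 in RBP-J-deficient Ly6Chi cells. The control Ly6Clo library was thus the highest of the 4 and the RBP-J-deficient Ly6Clo library the lowest, and the Ly6Chi libraries lay between them. In Ly6Clo cells the log2 ratio of RBP-J-deficient over control was -3.22, or 9.30-fold lower on the (FPKM + 1) scale, and only 11 of the 10240 background genes had a lower ratio. In Ly6Chi cells it was -0.23. The ratio in Ly6Clo minus that in Ly6Chi was -2.99, a difference that was not tested. The study also measured Nr4a1 by quantitative PCR and flow cytometry, and reports a similar level in Ly6Clo monocytes of both genotypes. Those measurements were not analysed here, and the ratio given is between single libraries. Nr4a2 had an FPKM of 0.112 and 0.264 in control and RBP-J-deficient Ly6Clo, and 0.0694 and 0.297 in control and RBP-J-deficient Ly6Chi cells. Nr4a3 is listed at 0 in every library. Nr4a1 and Nr4a2, whose windows hold the same number of TGACG matches, were far apart in level, and no level is read for Nr4a3. Whether the matches bear on the level was not tested.

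**Figure D1:**
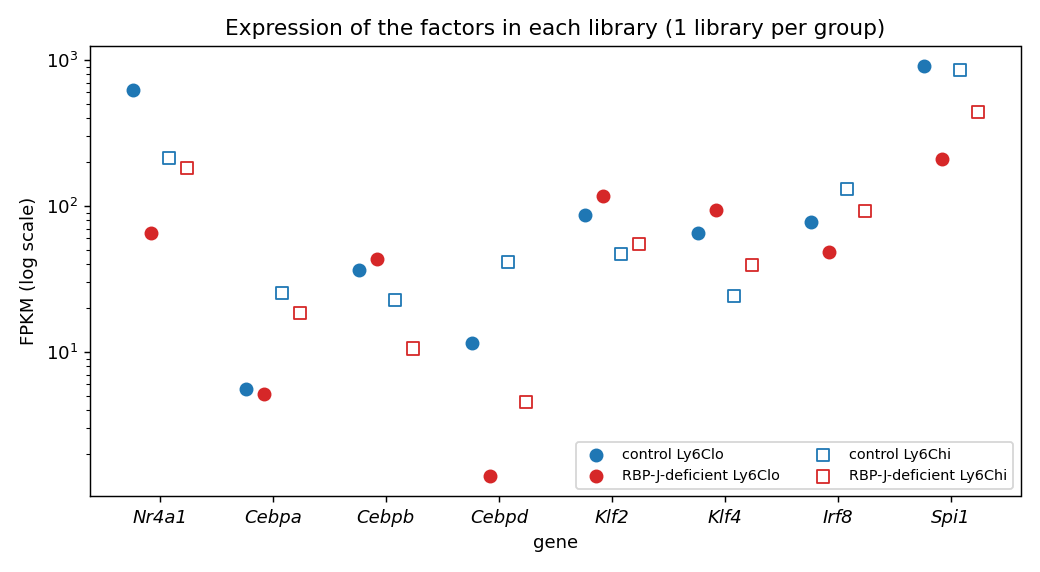
FPKM on a log axis of the 8 factors that reached an FPKM of 1 in 1 or more libraries; each point is 1 library, circles are Ly6Clo and squares Ly6Chi monocytes, blue is control and red RBP-J-deficient. Nr4a1 runs from 65.6 to 618.2, Cebpd from 1.42 to 41.1, and Spi1 is above 200 in all 4 libraries.

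Spi1 was the most highly expressed of the 10 factors in every library. In Ly6Clo cells its FPKM was 902.7 (control) and 211.1 (RBP-J-deficient), and in Ly6Chi cells 851.0 and 441.7. The 2 control libraries were near each other, with a log2 ratio of Ly6Clo over Ly6Chi of 0.08, and both RBP-J-deficient libraries were lower. The log2 ratio of the genotypes was -2.09 in Ly6Clo and -0.94 in Ly6Chi cells. Irf8, which acts with PU.1 on shared composite sites, had an FPKM of 77.9 and 48.2 in control and RBP-J-deficient Ly6Clo, and 130.3 and 92.9 in Ly6Chi cells. Its log2 ratio was -0.68 in Ly6Clo and -0.48 in Ly6Chi cells, short of 2-fold in both. Within a library, Spi1 was 11.6 times the level of Irf8 in control Ly6Clo, 4.38 in RBP-J-deficient Ly6Clo, 6.53 in control Ly6Chi and 4.76 in RBP-J-deficient Ly6Chi cells.

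The C/EBP genes, 3 basic leucine zipper factors, did not move together. Cebpd, induced in myeloid cells by inflammatory signals, had an FPKM of 11.5 (control) and 1.42 (RBP-J-deficient) in Ly6Clo cells, and of 41.1 and 4.54 in Ly6Chi cells. It was lower in RBP-J-deficient cells of both subsets, with log2 ratios of -2.37 and -2.92, and in Ly6Chi cells only 6 background genes had a lower ratio. Cebpb had an FPKM of 36.3 and 43.5 in control and RBP-J-deficient Ly6Clo, and 22.8 and 10.6 in Ly6Chi cells. Its log2 ratio was 0.25 in Ly6Clo cells, where rescaling to TPM gave -0.04, and -1.04 in Ly6Chi cells, where a correction for GC content gave -0.61, short of 2-fold. Cebpa had an FPKM of 5.61 and 5.15 in control and RBP-J-deficient Ly6Clo, and 25.4 and 18.4 in Ly6Chi cells. Its log2 ratio was -0.10 in Ly6Clo cells, where the GC correction gave 0.47, and -0.44 in Ly6Chi cells. The level of Cebpb was 6.47 and 8.45 times that of Cebpa in control and RBP-J-deficient Ly6Clo cells. In Ly6Chi cells it was 0.900 and 0.573 times. Both Ly6Clo libraries thus had more Cebpb than Cebpa, and both Ly6Chi libraries had less.

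Counting limits the value of Cebpd. In the deposited table it shares its locus with Spidr, which GENCODE places on the opposite strand across its 3′ end, so reads of the 2 genes may have been divided between them. Spidr, named for this overlap, had an FPKM of 16.3 and 11.7 in control and RBP-J-deficient Ly6Clo, and 15.7 and 13.05 in Ly6Chi cells, log2 ratios of -0.45 and -0.25. In GENCODE, Cebpb overlaps Tmem189, Cebpa overlaps Gm45091 and Irf8 overlaps Gm20388. The longest transcripts of Cebpa, Cebpb and Cebpd have 1 exon.

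Klf2 and Klf4, zinc finger factors of quiescence and of monocyte formation, were both higher in Ly6Clo than in Ly6Chi cells of either genotype. Klf2 had an FPKM of 86.7 and 117.6 in control and RBP-J-deficient Ly6Clo, and 46.6 and 54.8 in Ly6Chi cells. Its genotype log2 ratios were 0.44 and 0.23. Klf4 had an FPKM of 65.4 and 94.5 in Ly6Clo, and 24.2 and 39.2 in Ly6Chi cells, in the same order, with log2 ratios of 0.52 and 0.67. Neither gene reached 2-fold between genotypes as deposited. With the GC correction Klf2 just reached 2-fold in Ly6Clo cells. With the mean GC content of all transcripts, an alternative chosen after seeing the data, Klf4 also reached it, at 1.13 in Ly6Clo and 1.02 in Ly6Chi cells. The level of Nr4a1 was 7.13 times that of Klf2 in control Ly6Clo and 0.558 times in RBP-J-deficient Ly6Clo cells, against 4.59 and 3.33 times in Ly6Chi cells. The Irf8 to Klf4 ratio was 1.19 and 0.510 in Ly6Clo, and 5.38 and 2.37 in Ly6Chi cells.

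Counted against the background, 3 of the 8 measured factors (Nr4a1, Cebpd and Spi1) were at least 2-fold lower in RBP-J-deficient Ly6Clo cells, where 11.1% of all background genes were, and 0 were at least 2-fold higher, where 8.97% were. At the fold thresholds of the study's methods, 2 factors (Nr4a1 and Cebpd) had a ratio of 0.2 or less, against 0.674%, and 0 had one of 5.7 or more, against 0.273%. Cebpd was close to the limit of -2.32 on the log2 scale, and at -2.30 with the GC correction and -1.36 with a pseudocount of 5 it no longer passed it. In Ly6Chi cells 2 factors (Cebpb and Cebpd) were at least 2-fold lower, against 4.56%, and 0 were higher, against 2.64%. Cebpd alone was at 0.2 or less, and 0 factors were at 5.7 or more, with 0.156% of background genes in each direction. With a pseudocount of 5, Cebpd at -2.27 did not pass. The median log2 ratio of the 8 factors was -0.39 in Ly6Clo and -0.46 in Ly6Chi cells, beside 0.023 and 0.0041 over the background. The members were chosen as known regulators, but with earlier results of these data known, and 8 genes are few. These counts therefore describe the genes named and test nothing.

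**Figure D2:**
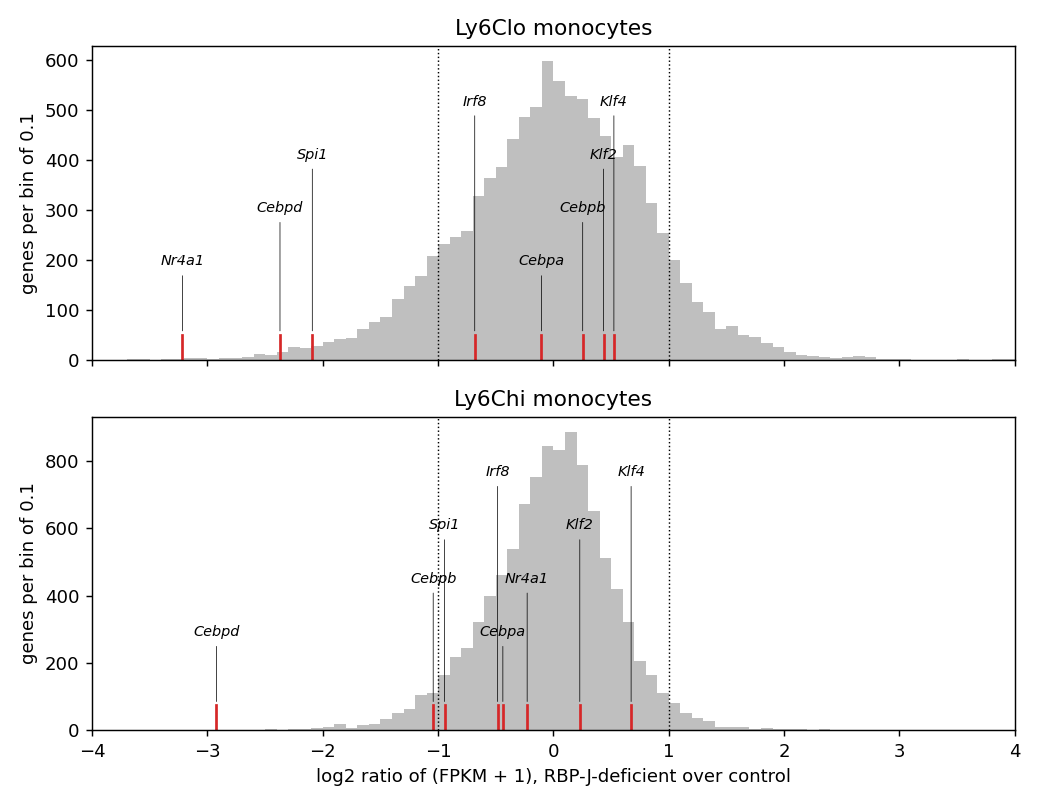
Genotype log2 ratio of (FPKM + 1) in Ly6Clo (top) and Ly6Chi (bottom) monocytes; grey bars count background genes per bin, red ticks are the 8 factors, positive values are higher in RBP-J-deficient cells, dotted lines mark 2-fold, and genes beyond the axis are not drawn. Nr4a1 at -3.22, Cebpd at -2.37 and Spi1 at -2.09 stand in the lower tail in Ly6Clo, and Cebpd at -2.92 in Ly6Chi cells.

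The subset difference asks how the factors differ between Ly6Clo and Ly6Chi cells of 1 genotype. It uses the same 4 libraries as the genotype difference, so the comparisons are not independent. In control mice, Nr4a1 (log2 ratio of Ly6Clo over Ly6Chi 1.53) and Klf4 (1.40) were at least 2-fold higher in Ly6Clo cells, as 5.21% of background genes were. Cebpa (-1.996) and Cebpd (-1.75) were at least 2-fold lower, as 7.75% were. Klf2 (0.88), Cebpb (0.65), Spi1 (0.08) and Irf8 (-0.73) were within 2-fold. In RBP-J-deficient mice, Cebpb (1.94), Klf4 (1.25) and Klf2 (1.09) were at least 2-fold higher in Ly6Clo cells, against 8.41%. Cebpa (-1.66), Nr4a1 (-1.46), Cebpd (-1.20) and Spi1 (-1.06) were at least 2-fold lower, against 10.6%. Of these, Spi1 was short of 2-fold under the GC correction (-0.65) and Cebpd under a pseudocount of 5 (-0.57). In TPM, Irf8 was also at least 2-fold lower (-1.15), and Klf2 was short of 2-fold (0.88). Nr4a1 was thus higher in Ly6Clo than in Ly6Chi cells of control mice and lower in those of RBP-J-deficient mice. Spi1 also changed sign, from a small difference (0.08) in control mice to -1.06 in RBP-J-deficient mice. Cebpa, Cebpb, Cebpd, Klf2, Klf4 and Irf8 kept the sign of their subset difference in both genotypes.

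**Figure D3:**
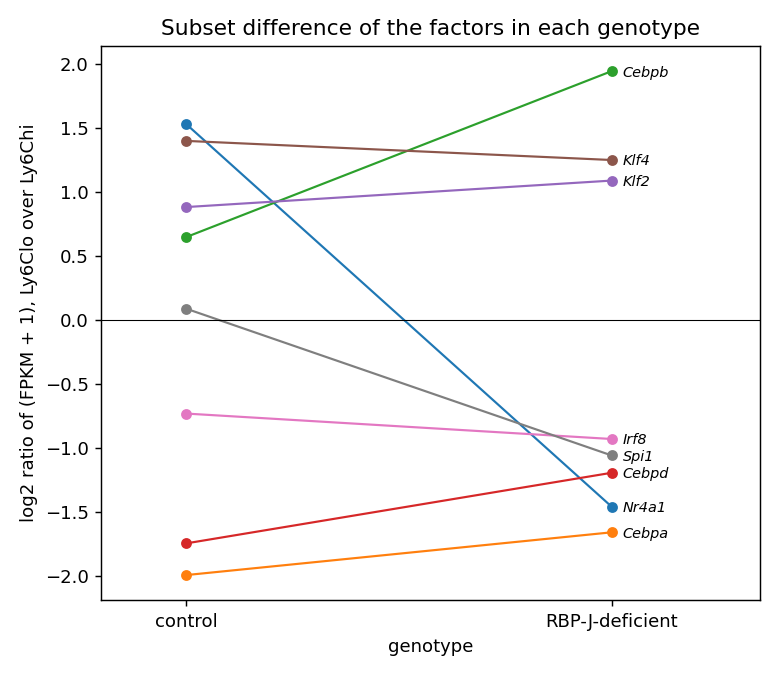
Log2 ratio of (FPKM + 1), Ly6Clo over Ly6Chi monocytes, in control (left) and RBP-J-deficient (right) mice; each line joins the values of 1 factor, with 1 library per group. The line of Nr4a1 falls from 1.53 to -1.46, and that of Cebpb goes from 0.65 to 1.94.

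The log2 ratios of the genotypes ran with the GC content of the transcripts, which is given here beside the factors because several are rich in G and C. Across 6086 genes, which are not independent replicates, Spearman's rho between GC content of the longest transcript and log2 ratio was -0.37 in Ly6Clo and -0.29 in Ly6Chi cells. In Ly6Clo cells the median log2 ratio was 0.41 for genes of up to 45% GC and -0.44 for those between 55 and 60%. GC content was 57.0% for Nr4a1, 62.6% for Cebpa, 67.2% for Cebpb, 51.6% for Cebpd, 61.6% for Klf2, 54.6% for Klf4, 51.7% for Irf8 and 58.9% for Spi1. For Irf8 and Klf4 this was the lowest value of their transcripts, which reached 61.4% and 67.4%. The corrected Ly6Clo ratio of Irf8 was -0.61 by the longest transcript and -0.22 by the mean GC content of all transcripts. After the trend was subtracted, the Ly6Clo ratio was -2.79 for Nr4a1, -2.30 for Cebpd and -1.58 for Spi1, still at least 2-fold lower. The Ly6Chi ratio was -2.89 for Cebpd and -0.03 for Nr4a1. The median of the 8 factors in Ly6Clo cells went from -0.39 to -0.07.

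**Figure D4:**
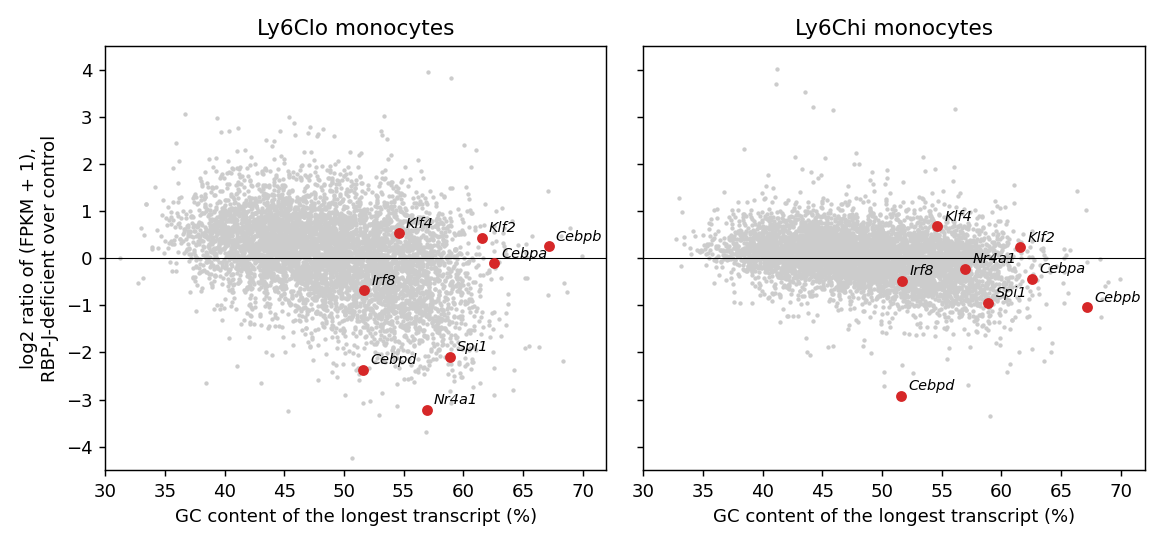
Genotype log2 ratio of (FPKM + 1) against the GC content of the longest transcript (%) in Ly6Clo (left) and Ly6Chi (right) monocytes; grey points are 6086 genes whose mean FPKM was 5 or more, red points are factors, and genes beyond the axes are not drawn. The grey points fall with GC content, and Nr4a1 (57.0% GC, -3.22) lies below them in Ly6Clo cells.

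The counts, medians and extremes of this and the following lists are without the GC correction, which moved genes across 2-fold in both directions. Of 28 other C/EBP, KLF, IRF and PU.1 family genes, 19 were in the background. In Ly6Clo cells 4 of them were at least 2-fold lower in RBP-J-deficient mice and 0 higher, with a median of -0.20, where 11.1% and 8.97% of background genes were lower and higher. The lowest were Irf7 (-1.52) and Irf3 (-1.34), which drive type I interferon, and the highest Cebpg (0.70) and Ddit3 (0.66). In Ly6Chi cells 0 were lower and 3 higher, with a median of -0.06, against 4.56% and 2.64%. Klf11 (-0.96) and Klf3 (-0.87) were lowest, and Spic (1.16), a PU.1 relative of iron-recycling macrophages, and Cebpe (1.14) were highest. With the GC correction, Irf3 was short of 2-fold in Ly6Clo cells (-0.93), while Klf3 was at least 2-fold lower there (-1.13).

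Of 29 other factors of myeloid fate, 25 were in the background. In Ly6Clo cells 4 were at least 2-fold lower and 1 higher, with a median of -0.48, and the background shares were 11.1% and 8.97%. Bhlhe40 (-2.26) and Stat3 (-1.71), which carries cytokine signals, were lowest, and Fli1 (1.89) and Batf3 (0.95) highest. In Ly6Chi cells 2 were lower and 1 higher, with a median of -0.03, against 4.56% and 2.64% of background genes. Myc (-1.86) and Rara (-1.13) were lowest, and Pparg (1.57) and Ets2 (0.85) highest. Of these, Myc and Ets2 were low, at an FPKM of 2.90 and 0.0744 and of 1.28 and 3.09 in control and RBP-J-deficient cells. With the GC correction, Rara was short of 2-fold in Ly6Chi cells (-0.86), while Batf3 was at least 2-fold higher in Ly6Clo cells (1.51).

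Nr4a1 is itself an immediate early gene, one of those that cells switch on within minutes of a stimulus. Of 20 other such genes, 17 were in the background. In Ly6Clo cells 5 were at least 2-fold lower and 1 higher, with a median of -0.66, beside 11.1% and 8.97% of the background. Junb (-2.91), an AP-1 subunit, and Zfp36 (-1.89), which degrades cytokine mRNA, were lowest, and Ier3 (1.01) and Atf3 (0.54) highest. In Ly6Chi cells 3 were lower and 0 higher, with a median of -0.38, beside 4.56% and 2.64%. Junb (-1.93) and Zfp36 (-1.13) were again lowest, and Nfkbiz (0.55) and Ier5 (0.49) highest.

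Genes known to be regulated by PU.1, C/EBP or KLF2 were followed by name. Csf1r, the receptor for the growth factor of monocytes, had an FPKM of 406.7 and 157.8 in control and RBP-J-deficient Ly6Clo, and 306.7 and 213.0 in Ly6Chi cells. In Ly6Clo cells its log2 ratio was -1.36, beside -1.35 for Csf2ra and -2.07 for Csf3r, the GM-CSF and G-CSF receptor genes. In Ly6Chi cells these 3 were at -0.52, -0.47 and -0.84. In Ly6Clo and Ly6Chi cells, Itgam stood at -0.16 and -0.05, and Cd14, a co-receptor for bacterial lipopolysaccharide, at 0.89 and -0.22. With the GC correction, in Ly6Clo cells, Csf2ra was short of 2-fold (-0.88) and Cd14 was at least 2-fold higher (1.03). Csf1r (-1.08) and Csf3r (-1.81) were still at least 2-fold lower. S1pr1, a target of KLF2, had an FPKM of at most 0.614 in any library.

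The genes nearest in pattern were sought for the 3 factors with the widest range, by the Euclidean distance between mean-centred log2(FPKM + 1) profiles over the 4 libraries, among 6405 genes. Nearest to Nr4a1 were 6430706D22Rik (distance 0.107), S1pr4 (0.507) and Pik3ap1 (0.521). Nearest to Cebpd were Lypla2 (0.732), Ssbp4 (0.801) and Junb (1.06), none of them close. Nearest to Cebpa were Pdlim1 (0.114), Vwa5a (0.150) and Pira11 (0.155). With 4 points to a profile, many genes can lie near one another.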

How the data were processed

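Paired-end RNA-seq libraries of sorted blood monocytes were compared, 1 library per group. The authors deposited FPKM values per gene for all 6 pairs of libraries. The submitters' processing notes name CASAVA 1.8, TopHat2 2.1.0, Cufflinks 2.2.1 and mm10. The deposited table also holds fold changes, test statistics, p-values and q-values of single libraries against each other, which were not used.

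Rows that share a symbol were summed, and log2 ratios of (FPKM + 1) were computed without a test, at a threshold of 2-fold and at the 5.7 and 0.2 of the study's methods. The depth is unknown, so no interval is given. GC content came from GENCODE M21 transcripts and was found for 94.9% of background genes. The GC correction subtracted a lowess trend (fraction 0.3, 3 iterations) and was tested on simulated data. Alternatives covered the pseudocount, TPM, centring, GC content, thresholds and filters. Promoters came from RefSeq (GRCm38.p6).

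Genes named are the 10 factors, Rbpj, the genes of the list regulated by PU.1, C/EBP or KLF2 apart from 1 that is not reported here, the 2 lowest and 2 highest ratios of each other list, and the 3 nearest in pattern. Spidr, Actb, Cd79a, Cd79b and the overlapping genes were named after their values were seen. The members and lists were chosen with earlier results of these data known. The software was statsmodels 0.14.6, scipy 1.17.1, pandas 2.3.3 and numpy 2.4.6 under Python 3.11.15.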

Additional observations from a re-analysis of the deposited data

Results flagged for a closer look

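As deposited, Cebpb had genotype ratios of opposite sign in the subsets. Its log2 ratio of RBP-J-deficient over control was 0.25 in Ly6Clo and -1.04 in Ly6Chi cells. In TPM both were negative, at -0.04 and -1.16. The difference of 1.30 was not tested, since each group has 1 library.

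The same held for the medians of 3 marker lists. The median log2 ratio was 1.29 in Ly6Clo and -0.19 in Ly6Chi cells for the Ly6Chi monocyte markers, -0.49 and 0.87 for the Ly6Clo monocyte markers, and -2.12 and 0.48 for the 4 expressed B cell markers. These differences were not tested either. Of the B cell markers in Ly6Clo cells, the FPKM of Cd79b was 41.9 (control) and 100.2 (RBP-J-deficient), and that of Cd79a was 9.02 and 1.13.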

How the results depend on the processing

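Each ratio was recomputed under 6 alternatives, of which the GC correction with the mean GC content of all transcripts was chosen after seeing the data. No factor at least 2-fold lower or higher changed sign under any of them. Nr4a1 in Ly6Clo cells ranged from -3.52 to -2.79, Spi1 from -2.40 to -1.58, Cebpd from -2.94 to -1.36, and Cebpd in Ly6Chi cells from -3.15 to -2.27.

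Counts of factors that moved by more than 1.5 times come first. In Ly6Clo cells, 1 factor was at least 2-fold higher in RBP-J-deficient mice under the GC correction and 2 with the mean GC content. In Ly6Chi cells, 1 was lower under a pseudocount of 5, under both GC corrections and at the thresholds of 5.7 and 0.2, and 1 was higher with the mean GC content and at 1.5-fold. For the subsets of control mice, 4 were higher in Ly6Clo cells under both GC corrections and at 1.5-fold. At 5.7 and 0.2, 0 passed in either direction in both genotypes. Smaller moves were in RBP-J-deficient subsets, where the 4 lower factors became 3 under a pseudocount of 5 and both GC corrections and 5 in TPM, and the 3 higher became 2 in TPM. In Ly6Chi cells the 2 lower became 3 in TPM, with Spi1 at -1.05. A threshold of 1.5-fold added 1 lower factor in each comparison. The median over the 8 factors of the Ly6Clo minus the Ly6Chi genotype ratio was 0.029 and depended on the setting, at 0.054 under a pseudocount of 5, -0.17 in TPM, 0.0095 after centring, and 0.24 and 0.28 under the GC corrections.

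Rescaling to TPM shifted the Ly6Clo genotype ratios by -0.30 and the Ly6Chi ones by -0.10 (median), and the subset ratios of RBP-J-deficient mice by -0.21. Of genes past 2-fold in Ly6Clo cells, 44.8% were higher as deposited and 22.9% in TPM. In the subsets of RBP-J-deficient mice these shares were 44.3% and 28.9%. The 1134 lower and 919 higher genes in Ly6Clo cells became 1747 and 1305 under a pseudocount of 0.1, 458 and 511 under 5, and 1813 and 537 in TPM. In Ly6Chi cells 467 and 270 became 933 and 591, 101 and 73, and 708 and 272.

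No paired analysis was possible because each group has 1 library and no replicate number. Leaving out a replicate was not run for the same reason. The depth is unknown, and no precision is given for low values such as those of Nr4a2.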
